A study of Rattus norvegicus with 4 samples.

Results

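Of 9 genes of the WNT pathway in rat granulosa cells, the secreted inhibitor Sfrp2 had signals of 63.9, 22.3 and 31.7 on 3 of 4 arrays and 2110.7 on the array of FSH-treated cells that carried active FOXO1. The ligand Wnt4 was highest with the hormone FSH (follicle-stimulating hormone) and the control vector. Wnt4 and the receptors Fzd1 and Fzd2 were lowest on the array of the FOXO1 mutant in the DNA-binding domain. The 9 genes (Sfrp1, Sfrp2, Sfrp4, Wnt4, Fzd1, Fzd2, Ctnnb1, Axin2 and Tcf7l2) were chosen by name, and every probe set annotated with exactly 1 of these symbols was taken. This gave 20 probe sets of the 20826 with a single gene symbol, and 9 genes of 14217.

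Granulosa cells are the somatic cells around the oocyte that make estradiol. Here they were primary cells of female Sprague-Dawley rats of 23 to 25 days that had received estradiol, kept without serum in the medium on dishes coated with 1% serum. Each culture was exposed for 4 h to 1 of 3 adenoviruses. They carried GFP, a fluorescent marker protein that serves as the control, the constitutively active FOXO1 called FOXOA3, or FOXOA3-mDBD, which is mutated in the DNA-binding domain. After washing, the cells received 100 ng/ml of FSH, the pituitary hormone that drives follicle growth, or vehicle, for 24 h. The 4 groups, with 1 array each, are named GFP vehicle, GFP FSH, FOXOA3 FSH (active FOXO1 with the hormone) and FOXOA3-mDBD FSH (its mutant with the hormone), and values without array names follow this order. No array of either FOXO1 vector without hormone was analysed here. All cells carried a virus and came from estradiol-treated animals. The sources used here do not state the promoter of the vectors, the amount of virus or whether animals were pooled.

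WNT proteins are secreted ligands that bind frizzled receptors (Fzd) and LRP co-receptors at the cell surface. In the canonical branch, this binding stops a cytoplasmic complex built on Axin from marking beta-catenin (Ctnnb1) for destruction, and beta-catenin then joins TCF/LEF factors such as Tcf7l2 on target genes, among them Axin2. Secreted frizzled-related proteins (Sfrp) carry a frizzled-like domain without a membrane anchor and bind WNT ligands outside the cell. In the ovary, Wnt4 is known for its part in female gonad development and in the follicle, and beta-catenin takes part in the expression of steroidogenic genes of granulosa cells.

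Values are MAS5 signals, the authors' linear intensity for each probe set of an oligonucleotide array. A floor was set at the median signal of all rat probe sets, 100.5, and log2 ratios were taken after raising signals under the floor to it. A gene was measured in a comparison if the brighter of its signals was above the floor, and a fold whose dimmer signal lay under the floor is a lower bound, written "at least". Each gene is represented by its brightest probe set, and a fold of 2 or more is the mark for higher or lower. With 1 array a group, no difference has a replicate check, no value has an error and no p-value was computed.

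The arrays had 47.9% to 52.8% of rat probe sets above the floor. Beta-actin signal at the 3' end over that at the 5' end, a sign of RNA quality, was 5.15 on GFP vehicle and 12.0, 9.79 and 10.7 on the arrays with FSH. The same ratio for Gapdh was 2.316, 2.455, 2.842 and 3.155 in array order, highest on FOXOA3-mDBD FSH. The spikes are bacterial poly-A transcripts that can be added to an RNA sample. Their probe sets were dim on GFP vehicle and FOXOA3 FSH (geometric means of 21.4 and 22.6, under the floor). They were bright on GFP FSH and FOXOA3-mDBD FSH (394.6 and 539.4). Whether spikes were added to every sample is not known here. A comparison of a dim with a bright array is said here to cross the spike state. Foxo1 had signals of 8149, 2862, 3834 and 961, and since it is not known whether its probe set reads the vectors, these do not check them. All 11 granulosa markers on the array were above the floor somewhere, and 9 of them on all 4 arrays. Foxl2, a transcription factor that defines granulosa cells, was at 5546, 3536, 4297 and 994 in array order. The leukocyte markers Ptprc, Cd68, Cd3e and Itgam, the endothelial markers Pecam1, Vwf, Tie1 and Emcn, and the theca markers Cyp17a1, Insl3 and Tcf21 were under the floor on every array. Other markers of these lists were above it. Cd14, of the leukocyte list, had 2167, 727, 2577 and 1012, Kdr, of the endothelial list, had 123 to 376, and Lhcgr, which granulosa cells also express, reached 4402 on GFP FSH. The leukocyte gene Lyz2, the oocyte genes Gdf9 and Zp2 and the epithelial gene Krt8 were also above the floor on all 4 arrays. In bulk RNA, fewer cells of a type and less RNA per cell cannot be told apart.

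The members fell into those with a clear signal and those near the floor. Of the 20 probe sets, 14 were above the floor on at least 1 array and 7 on all 4. Wnt4, Fzd1, Fzd2, Ctnnb1 and Tcf7l2 had a probe set above the floor on all 4 arrays. Sfrp1 and Sfrp4 were above it on 3 and Sfrp2 on 1. Axin2 was under it throughout.

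**Figure D1:**
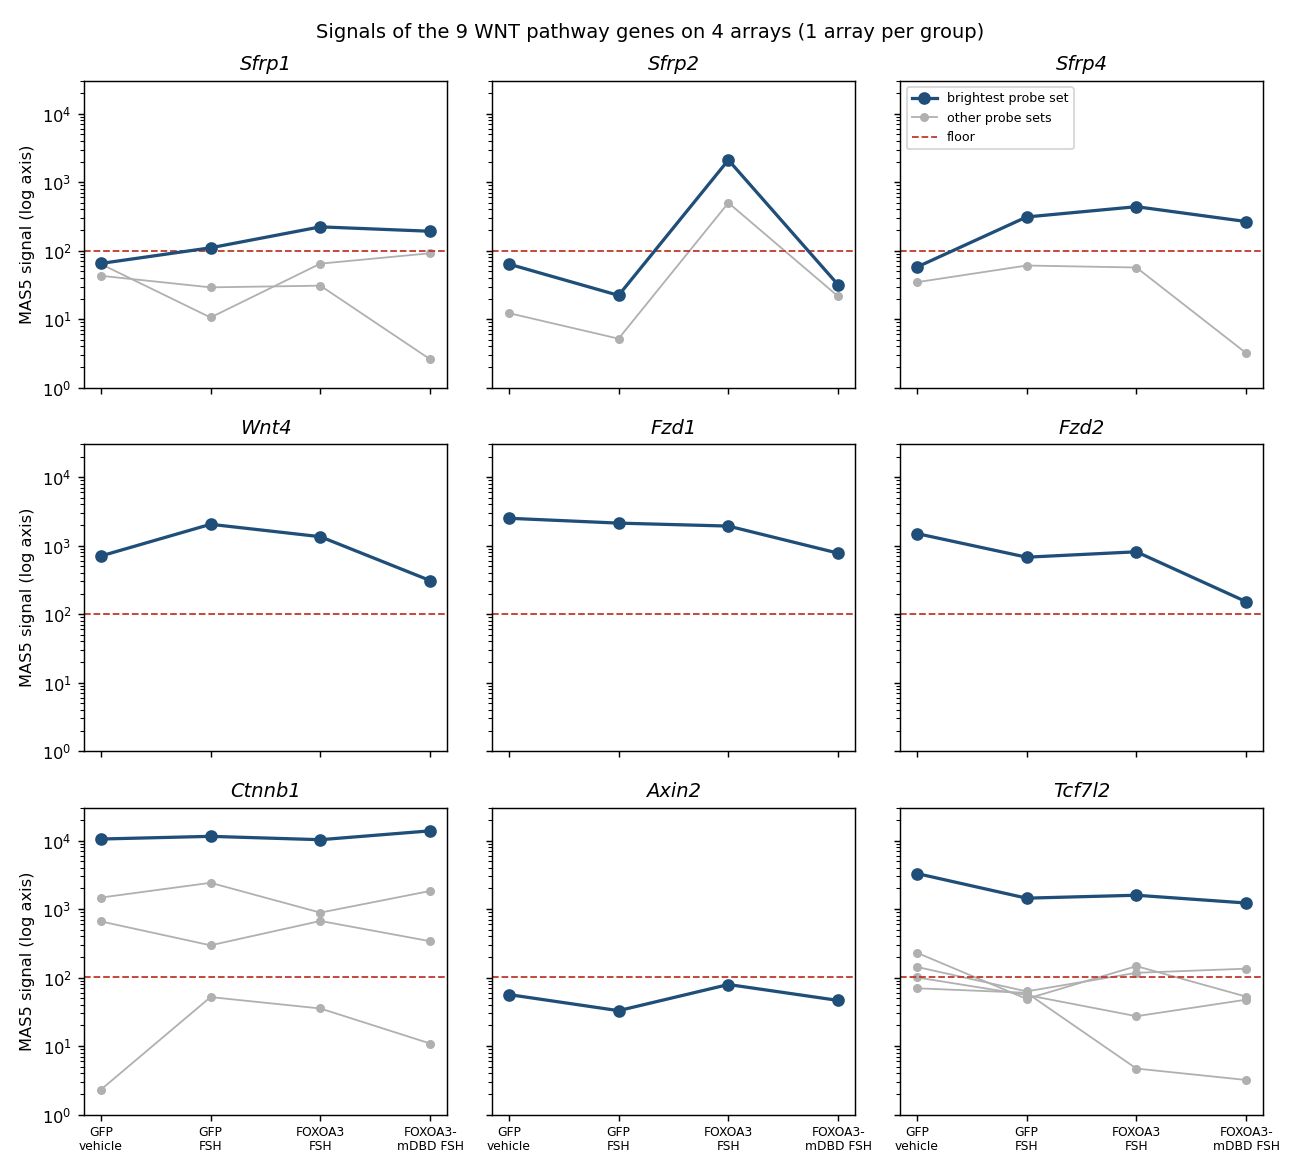
MAS5 signal (log axis) of every probe set of the 9 genes on the 4 arrays, 1 array per group, with the brightest probe set of each gene in blue, the others in grey and the floor of 100.5 as a dashed line. Both Sfrp2 probe sets rise above the floor on FOXOA3 FSH and on no other array, and Wnt4, Fzd1 and Fzd2 are lowest on FOXOA3-mDBD FSH.

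The Sfrp2 promoter is shown because the signal of this gene differed most between arrays among the 9. It is the 250 bases before the annotated start, chr2:171387286-171387535 on the plus strand of GRCr8, from RefSeq, with each CpG dinucleotide in capitals.
Sfrp2: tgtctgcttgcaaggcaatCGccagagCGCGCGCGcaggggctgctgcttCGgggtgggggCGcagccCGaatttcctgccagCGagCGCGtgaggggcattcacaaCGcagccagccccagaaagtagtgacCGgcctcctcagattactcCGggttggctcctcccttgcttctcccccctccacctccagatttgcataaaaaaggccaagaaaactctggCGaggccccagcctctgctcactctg

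These 250 bases hold 15 CpG. The full window of 300 bases, which runs 50 past the start, holds 21, and the median over 33469 rat promoter windows of this length is 7. Its GC content is 65.0%, against a median of 51.7%. Windows were found for 6 members (Sfrp2, Wnt4, Fzd1, Ctnnb1, Axin2 and Tcf7l2). Those of Wnt4, Tcf7l2 and Fzd1 hold more CpG than that of Sfrp2, at 53, 36 and 24. Those of Ctnnb1 and Axin2 hold fewer, at 7 and 5. All 6 windows were searched on both strands for 3 short motifs. The motifs were the FOXO element TGTTTAC, the insulin response core TGTTTTG and the TCF/LEF core CTTTGA. The first and the second share the letters TGTTT. Of all windows, 3.78%, 6.28% and 16.1% hold these motifs in that order. The windows of Sfrp2, Wnt4, Fzd1, Ctnnb1 and Tcf7l2 hold none of the 3, which says only that these letters are not in these windows.

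The Axin2 window holds 4 matches and is the only one of the 6 with any. The FOXO element stands at positions -146 to -140 from the start and TCF/LEF cores at -232 to -227 and -132 to -127. The insulin response core is on the opposite strand at 43 to 49. This start lies inside the annotated span of the gene and is not its outermost end, as is also so for the windows of Wnt4 and Ctnnb1. The stretch that holds the FOXO element and the nearer TCF/LEF core, 7 bases apart, is chr10:94398635-94398664 on the plus strand of GRCr8, with both in capitals.
Axin2: agccTGTTTACtttcttgCTTTGAtgttgg

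Among the secreted inhibitors, Sfrp2 had signals of 63.9 on GFP vehicle, 22.3 on GFP FSH, 2110.7 with FOXOA3 and 31.7 with FOXOA3-mDBD by probe set 1390119_at. Only the FOXOA3 FSH array was above the floor. The other probe set, 1396614_at, had 12.3, 5.2, 500.6 and 21.5 in the same order and showed the same single bright array. By the brighter probe set, Sfrp2 was at least 21.0-fold higher on FOXOA3 FSH than on each of the other arrays, and by the dimmer one at least 4.98-fold. The bound is set by the floor and not by a measured low signal. The comparison with GFP vehicle lies within 1 spike state, and those with GFP FSH and FOXOA3-mDBD FSH cross it.

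Sfrp4, an inhibitor known from luteinizing follicles, had signals of 57.6 on GFP vehicle, 311.0 on GFP FSH, 439.5 with FOXOA3 and 266.6 with FOXOA3-mDBD by probe set 1368394_at. It was above the floor on the 3 arrays with FSH and under it on the array without. It was at least 3.09-fold higher on GFP FSH than on GFP vehicle, and at least 4.37-fold higher on FOXOA3 FSH than on GFP vehicle. FOXOA3 FSH over GFP FSH was 1.41-fold, so that neither FOXO1 vector moved it past 2-fold from GFP FSH. Its other probe set, 1388021_at, was under the floor on every array, with a highest signal of 60.8. Averaged with it, the log2 ratio of GFP FSH over GFP vehicle was 0.81 in place of 1.63, within 2-fold.

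Sfrp1 was dim, with 65.2, 110.3, 223.1 and 192.4 in array order by its brightest probe set. The arrays of both FOXO1 vectors stood above both GFP arrays. The ratio of FOXOA3 FSH over GFP FSH was 2.02-fold, at the edge of the 2-fold mark, and that of FOXOA3-mDBD FSH over GFP FSH was 1.74-fold. Under quantile normalization the first had a log2 ratio of 0.68 in place of 1.02, which is within 2-fold. The other probe sets of Sfrp1 were under the floor on all 4 arrays.

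Wnt4, the ligand among the members, had signals of 705.7 on GFP vehicle, 2050.4 on GFP FSH, 1351.3 with FOXOA3 and 309.2 with FOXOA3-mDBD. GFP FSH was the highest array and FOXOA3-mDBD FSH the lowest, below the array without hormone. Wnt4 was 2.91-fold higher on GFP FSH than on GFP vehicle and 1.52-fold lower on FOXOA3 FSH than on GFP FSH. It was 6.63-fold lower on FOXOA3-mDBD FSH than on GFP FSH, and these arrays share their spike state. FOXOA3 FSH lay 4.37-fold above FOXOA3-mDBD FSH. Wnt4 has 1 probe set, so no second reading of these ratios is at hand.

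The member receptors, Fzd1 and Fzd2, were lowest on the FOXOA3-mDBD FSH array as well. Fzd1 had signals of 2510.9 on GFP vehicle, 2132.9 on GFP FSH, 1931.0 with FOXOA3 and 776.4 with FOXOA3-mDBD. The first 3 arrays lay within 1.30-fold of each other, and the last was 2.75-fold below GFP FSH. Fzd2 had 1502.6, 678.4, 813.5 and 151.9 in the same order. It was 2.21-fold lower with FSH than with vehicle under GFP, and 4.47-fold lower on FOXOA3-mDBD FSH than on GFP FSH. FOXOA3 FSH stood 1.20-fold above GFP FSH for Fzd2 and 5.36-fold above FOXOA3-mDBD FSH. Both receptors have a single probe set. With the floor at 542.5, which lies above its signal with the mutant, Fzd2 kept a log2 ratio of -0.32 for FOXOA3-mDBD FSH over GFP FSH, short of 2-fold.

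Of the 11 granulosa markers, 5 were lowest on that array too (Amh, Amhr2, Foxl2, Inha and Nr5a1). The other 6, among them Inhba at 11911 against 10189, were higher there than on GFP vehicle. Against GFP FSH, the reference for the folds of Wnt4, Fzd1 and Fzd2 above, all 11 were lower there, with Inhba at 11911 against 25593. Foxl2 is given above, and the steroidogenic factor Nr5a1 was at 1214, 1800, 1506 and 243 in array order. The summed signal of the 11 granulosa markers was 49880, 133900, 58290 and 47880 on these arrays. The part of these values in the ratios of Wnt4, Fzd1 and Fzd2 was not tested.

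Beta-catenin itself, Ctnnb1, was bright and nearly level by probe set 1373470_at, with 10531.5, 11526.1, 10297.1 and 13865.7 in array order. The highest was 1.35-fold above the lowest. Its dimmer probe sets disagreed with this and with each other. Probe set 1373067_at had 1470.7, 2418.7, 887.7 and 1838.0, and was higher on GFP FSH and FOXOA3-mDBD FSH, the arrays with bright spikes. Probe set 1369733_at had 661.6, 295.8, 670.8 and 339.6 and was lower on those same arrays. A statement on Ctnnb1 therefore depends on the probe set, and the part of the spike state in these differences was not tested. The fourth probe set did not exceed 51.9.

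Tcf7l2, a TCF/LEF factor through which beta-catenin reaches its target genes, had 3306.2 on GFP vehicle, 1443.3 on GFP FSH, 1592.3 with FOXOA3 and 1226.2 with FOXOA3-mDBD by probe set 1377156_at. The array without FSH stood above the 3 arrays with it, which lay within 1.30-fold of each other. It was 2.29-fold lower on GFP FSH than on GFP vehicle and 2.08-fold lower on FOXOA3 FSH than on GFP vehicle. Of its 4 dimmer probe sets, 1378048_at had 231.0, 48.8, 147.0 and 52.7 and 1379815_at had 143.3, 62.9, 117.4 and 134.9, both with the highest signal on GFP vehicle as well. Another was above the floor only on GFP vehicle, at 100.6, and the last was under it throughout. With the mean of all 5 probe sets, the log2 ratio of GFP FSH over GFP vehicle was -0.58 in place of -1.20. Probe set 1379815_at entered this mean with -0.51 and 1392592_at, the one at 100.6, with -0.001. The last, under the floor on both arrays, entered with a ratio of 0.

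Axin2, a scaffold of the destruction complex and a widely used readout of beta-catenin activity, had 56.5, 32.9, 79.2 and 46.4 in array order. All lay under the floor, so that no fold is given. This says that Axin2 was not detectable above the floor by its 1 probe set, not that it was absent.

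**Figure D2:**
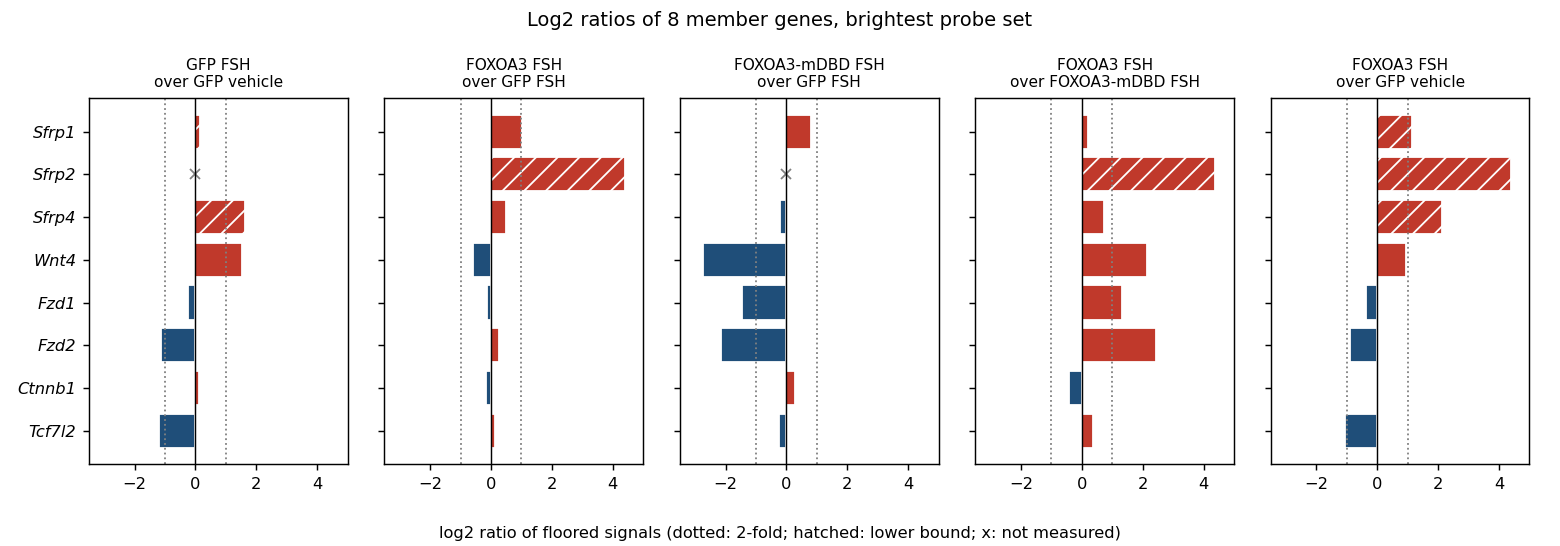
Log2 ratio of floored signals for the 8 member genes above the floor on at least 1 array, brightest probe set, in each of 5 comparisons of single arrays. Dotted lines mark 2-fold, hatched bars are lower bounds and a cross marks a gene not measured. Sfrp2 reaches at least 4.39 in each comparison with FOXOA3 FSH in the numerator, and Wnt4, Fzd1 and Fzd2 lie below -1 only for FOXOA3-mDBD FSH over GFP FSH, apart from Fzd2 at -1.15 for GFP FSH over GFP vehicle.

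The response to the hormone, GFP FSH over GFP vehicle, thus had 2 of 7 measured members higher, Sfrp4 and Wnt4, and 2 lower, Fzd2 and Tcf7l2. Of all 9578 measured genes, 6.84% were 2-fold higher and 11.1% lower. This comparison crosses the spike state and the difference in beta-actin 3' to 5' ratio between GFP vehicle and the arrays with FSH, and their part in it was not tested.

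Active FOXO1 against the control vector, FOXOA3 FSH over GFP FSH, had 2 of 8 measured members higher, Sfrp2 and Sfrp1, and 0 lower. The background of 9941 genes was 11.1% higher and 6.99% lower. The measured members had a median log2 ratio of 0.20, against 0.04 over all measured genes. Sfrp2 was far above the 2-fold mark and Sfrp1 at it. The comparison crosses the spike state, and it shares the GFP FSH array with the previous one.

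The mutant in the DNA-binding domain against the control vector, FOXOA3-mDBD FSH over GFP FSH, had 0 of 7 measured members higher and 3 lower, Wnt4, Fzd2 and Fzd1. In the background of 9748 genes, 12.5% were higher and 19.1% lower, the largest share of lower genes in the comparisons made. With each array centred on its median, the counts over all genes were 1533 higher and 1458 lower in place of 1221 and 1865, while the 3 member genes were still lower. The median log2 ratio was -0.24 for the members and -0.16 for all genes. Sfrp2 was under the floor on both arrays and is not among the 7. The GFP FSH array is also that of the 2 comparisons before.

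The vectors against each other, FOXOA3 FSH over FOXOA3-mDBD FSH, had 4 of 8 measured members higher, Sfrp2, Fzd2, Wnt4 and Fzd1, and 0 lower. Of 10092 genes, 19.0% were higher and 9.24% lower. The member median was 1.02, against 0.21 over all genes. This comparison crosses the spike state.

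FOXOA3 FSH over GFP vehicle compares arrays with the same spike state. It had 3 of 8 measured members higher, Sfrp2, Sfrp4 and Sfrp1, all secreted inhibitors, and 1 lower, Tcf7l2. Of 6 measured secreted inhibitors in the wider list below, 3 were higher and 2 lower, Sostdc1 at 3.51-fold and Dkk3 at 2.24-fold. The background of 9904 genes was 5.32% higher and 4.01% lower. Centring of the arrays gave 689 higher and 280 lower genes in place of 527 and 397. It also put Wnt4 at a log2 ratio of 1.09 in place of 0.94, past 2-fold, and Tcf7l2 at -0.90 in place of -1.05, short of it. Sfrp4 and Sfrp1 were at least 4.37-fold and at least 2.22-fold higher. These arrays differ in both the hormone and the vector.

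A wider list of 142 symbols of WNT pathway genes, sorted by role, put the members among their partners. The list names Ccn4 and Ccn5 also by their older symbols Wisp1 and Wisp2, which the array annotation does not use. Of the 142 symbols, 116 were on the array as the single symbol of a probe set, 87 were above the floor on at least 1 array and 57 on all 4. The list holds the 9 members as well. GFP FSH over GFP vehicle had 6 of 77 measured list genes higher and 16 lower, with 6.84% and 11.1% of all genes, and a median log2 ratio of -0.20. FOXOA3 FSH over GFP FSH had 15 of 83 higher and 6 lower, with 11.1% and 6.99% of all genes, and a median of 0.26. FOXOA3-mDBD FSH over GFP FSH had 13 of 82 higher and 17 lower, with 12.5% and 19.1% of all genes. Its median of -0.16 equals that of all genes to 2 decimals. With the floor at 542.5 this split turned round, to 9 higher and 5 lower. Over all genes that floor gave 699 higher and 872 lower. FOXOA3 FSH over FOXOA3-mDBD FSH had 22 of 81 higher and 8 lower, with 19.0% and 9.24% of all genes. Under quantile normalization it had 17 and 10 list genes, and 1508 and 1045 over all genes. FOXOA3 FSH over GFP vehicle had 8 of 81 higher and 9 lower, with 5.32% and 4.01% of all genes, and a median of 0.02.

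Wnt4 was the only one of 13 ligands on the array that was above the floor on all 4 arrays. Besides Wnt4, 8 ligands were above it on at least 1 array, and the brightest signal among them was 214.1. Wnt6, another ligand, had 73.2, 214.1, 148.9 and 159.7 in array order, and was at least 2.13-fold higher on GFP FSH than on GFP vehicle. Wls, which carries WNT ligands to the cell surface, was at 4054.6, 3078.2, 3435.8 and 2393.6 and stayed within 2-fold.

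The secreted inhibitors followed different patterns. Frzb, a frizzled-related protein like the Sfrp members, had 41.8, 41.9, 143.6 and 676.6, brightest with FOXOA3-mDBD where Sfrp2 was under the floor. Its second probe set had 24.4, 35.7, 73.4 and 680.4, bright on the same array. It was at least 6.73-fold higher on FOXOA3-mDBD FSH than on GFP FSH. Dkk3, a dickkopf-family protein, had 4806.3, 1000.3, 2148.9 and 344.8, and was 4.80-fold lower on GFP FSH than on GFP vehicle. Against GFP FSH it was 2.15-fold higher on FOXOA3 FSH and 2.90-fold lower on FOXOA3-mDBD FSH. A second Dkk3 probe set had 151.7, 23.2, 29.9 and 86.0, above the floor only on GFP vehicle. Sostdc1, which binds BMP ligands and WNT co-receptors, had 4793.2, 4449.9, 1367.2 and 710.9 and was lower with both FOXO1 vectors, by 3.25-fold and 6.26-fold against GFP FSH.

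Among receptors, Fzd4 had 600.5, 581.4, 262.2 and 85.1 on the 4 arrays in the same order. Like Fzd1 and Fzd2 it was lowest on FOXOA3-mDBD FSH, at least 5.79-fold below GFP FSH. Fzd6 had 1161.6, 1222.4, 1161.4 and 857.3, lowest there too but within 2-fold of the others. The frizzled receptors Fzd3 and Fzd8 were highest there. Fzd3 had 89.8, 237.7, 250.8 and 417.0. Fzd8 had 234.6, 744.0, 358.8 and 852.8 and was high on both arrays with bright spikes. Ryk, an atypical WNT receptor, had 1978.1, 1808.4, 4089.3 and 8699.7, and its second probe set 554.4, 952.7, 1133.2 and 4333.6. Both were brightest with FOXOA3-mDBD, and the first gave a 4.81-fold ratio to GFP FSH. Lrp6, a co-receptor, was 2.30-fold higher on FOXOA3 FSH than on GFP FSH.

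In the R-spondin group, whose receptors and ubiquitin ligases set how many frizzled receptors stay on the surface, Znrf3 had 341.3, 620.6, 263.2 and 1786.5. Znrf3, a ubiquitin ligase that removes frizzled receptors, was 2.36-fold lower on FOXOA3 FSH and 2.88-fold higher on FOXOA3-mDBD FSH than on GFP FSH. Lgr4, a receptor for R-spondins, was 2.61-fold higher on FOXOA3 FSH than on GFP FSH, at 392.3 against 150.2.

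Of the cytoplasmic transducers, 4 of 14 measured genes were lower with FSH under GFP and 0 higher, where all genes had 11.1% and 6.84%. Among them were Gsk3a, a kinase of the destruction complex, at 2.52-fold, Frat2 at 2.44-fold and Btrc, a ubiquitin ligase subunit that recognises beta-catenin, at 2.35-fold. With FOXOA3 against GFP FSH, Btrc was 4.00-fold higher and Frat2 3.26-fold. Dact1, which binds dishevelled proteins, was at 72.5, 49.2, 336.6 and 1128.0, at least 3.35-fold higher on FOXOA3 FSH and at least 11.2-fold higher on FOXOA3-mDBD FSH than on GFP FSH. The scaffolds Axin1 and Apc were 2.79-fold and 2.47-fold higher on FOXOA3-mDBD FSH than on GFP FSH.

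Nuclear effectors had 5 of 19 measured genes lower on GFP FSH than on GFP vehicle and 0 higher, against the same 11.1% and 6.84%. Bcl9, a co-factor of beta-catenin, was 2.86-fold lower, Tcf7l1 2.56-fold and Ctnnbip1, which blocks beta-catenin from TCF factors, 2.31-fold. The co-repressor Tle1 was 3.77-fold higher with FOXOA3 and 3.24-fold higher with FOXOA3-mDBD than on GFP FSH. On FOXOA3-mDBD FSH, Tcf7 was 3.26-fold lower, Bcl9l 2.51-fold and Tle5 at least 3.67-fold.

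Of 17 beta-catenin target genes on the array, 9 were above the floor on at least 1 array. Against GFP FSH, FOXOA3 FSH had 0 of 8 higher and 2 lower, Znrf3 and the Notch ligand Jag1 at 2.22-fold, where all genes had 11.1% and 6.99%. FOXOA3-mDBD FSH had 2 of 9 higher, Znrf3 and Myc at 2.51-fold, and 2 lower, Tcf7 and Bambi at 2.98-fold, where all genes had 12.5% and 19.1%. Apcdd1, a membrane inhibitor of WNT signalling, was 4.13-fold lower with FSH under GFP.

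In the cadherin-catenin junctions, which hold a second pool of beta-catenin at the membrane, Cdh11 had 1714.9, 56.7, 463.5 and 203.1. By this probe set, its brightest, Cdh11 was at least 17.1-fold lower on GFP FSH than on GFP vehicle. Another Cdh11 probe set had 151.6, 96.6, 180.2 and 50.5 in array order, highest on FOXOA3 FSH. The last had 103.9, 8.5, 27.3 and 22.6, above the floor only on GFP vehicle. Both lay too near the floor on GFP vehicle to reach 2-fold in this comparison, so neither checks the size of the fold. The catenins Jup and Ctnnd1 were 4.13-fold and 3.54-fold lower on GFP FSH than on GFP vehicle. FOXOA3 FSH was 3.19-fold below GFP vehicle for Jup and 1.16-fold for Ctnnd1. Ctnna1 had 9159.5, 10876.6, 8144.2 and 9752.5 and, like the brightest Ctnnb1 probe set, stayed within 2-fold. In the planar polarity and calcium branch, 2 of 10 measured genes were higher and 3 lower on FOXOA3-mDBD FSH than on GFP FSH. All genes had 12.5% and 19.1%. By their brightest probe sets, Mapk8 was 2.53-fold and Prickle2 2.22-fold higher. Vangl1 was 3.92-fold, Prickle1 3.25-fold and Daam1 2.75-fold lower.

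**Figure D3:**
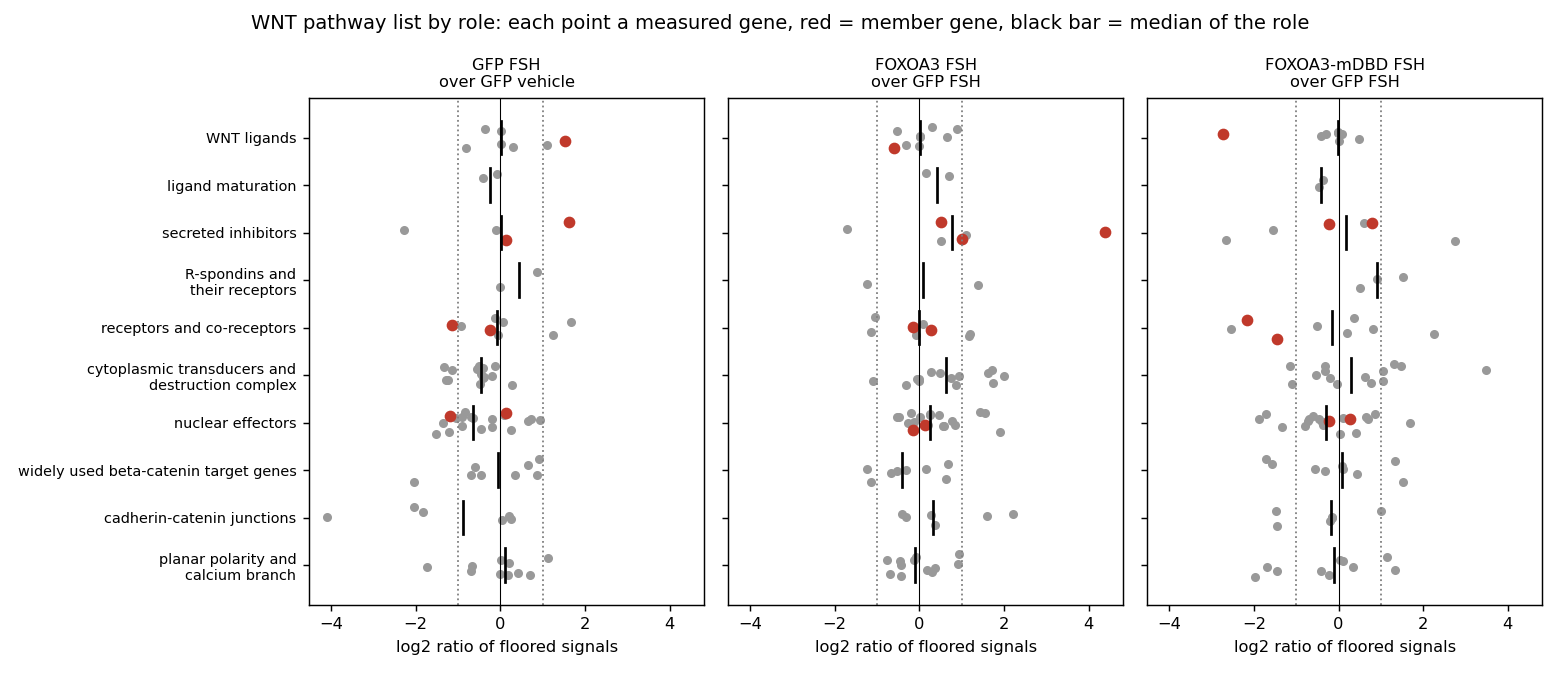
Log2 ratio of floored signals (x axis) for each measured gene of the WNT list by role, in 3 comparisons of single arrays, with member genes in red, the median of each role as a black bar and dotted lines at 2-fold. Sfrp2 stands apart to the right with FOXOA3 at 4.39 or more, and Wnt4 and Fzd2 lie at -2.73 and -2.16 with FOXOA3-mDBD.

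Some list genes followed the spike state. Both arrays with bright spikes were at least 2-fold below both others for 6 of the 87 list genes above the floor (Bcl9, Cdh11, Ctnnd1, Dkk3, Frat2 and Gsk3a), or 6.90%, and for 3.06% of all 10407 genes above the floor on at least 1 array. For the reverse pattern the numbers were 1 list gene, Fzd8, and 0.432% of all genes. None of the 8 member genes above the floor was among either by its brightest probe set. Because GFP FSH and FOXOA3-mDBD FSH carry the bright spikes, the spike state and the treatments cannot be told apart for these genes.

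The genes whose signals were closest to a member over the 4 arrays were found by the root mean square difference of floored log2 signals, each gene first centred on its own mean. The search ran over 10406 other genes, 4 points leave much room for chance likeness, and the values are a description. Closest to Sfrp2 were Mmp13, a collagenase, at a difference of 0.10, Dmrtc1c1 at 0.13 and Igsf1, a membrane glycoprotein, at 0.24. Mmp13 had 40.1, 11.8, 1804.9 and 83.5 in array order. Closest to Wnt4 were Akr1b8 at 0.11, Ptges2 at 0.17 and Cebpa, a transcription factor of the C/EBP family, at 0.18. Cebpa had 486.7, 1305.0, 1200.5 and 243.6.

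**Figure D4:**
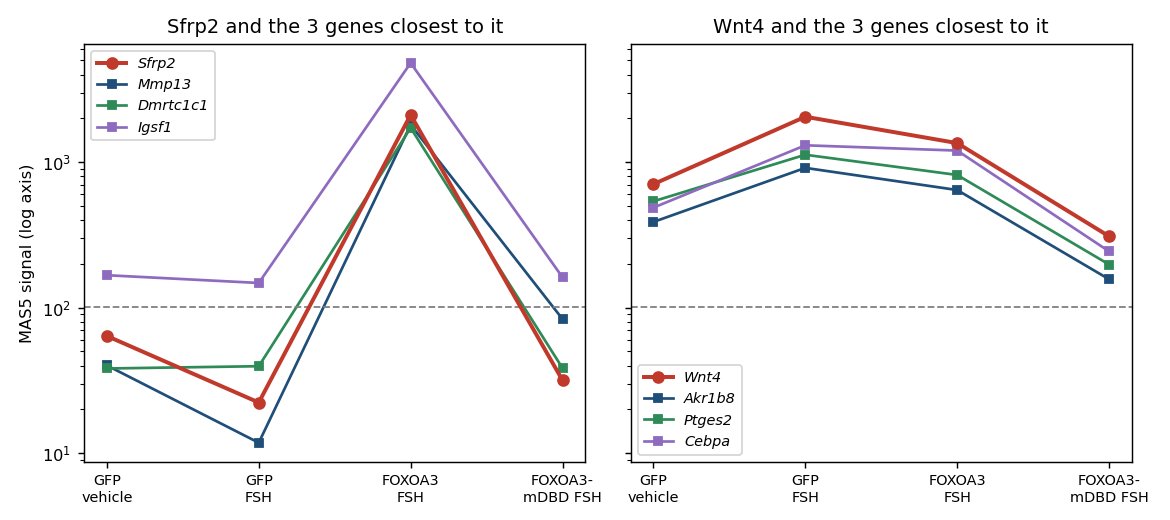
MAS5 signals (log axis) of Sfrp2 and Wnt4 and of the 3 genes closest to each over the 4 arrays, 1 array per group, with the floor of 100.5 dashed. Mmp13, Dmrtc1c1 and Igsf1 are brightest on FOXOA3 FSH, at 1804.9, 1719.6 and 4800.5, as is Sfrp2 at 2110.7, and the genes beside Wnt4 are highest on GFP FSH and lowest on FOXOA3-mDBD FSH.

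Closest to Sfrp4 were Gstt3 at 0.11, Oas1a, an interferon-induced enzyme, at 0.18 and the phospholipase Pla2g4a at 0.22. Fzd1 had near neighbours in Tmem276, the collagen gene Col5a1 and Ndst2, at 0.03 to 0.04, and Fzd2 in Selenon, Ttyh3 and Mfap2, at 0.10 to 0.12. The neighbours of Tcf7l2 were Llgl2, the tubulin gene Tubb2b and Zfhx3, at 0.03 to 0.07. Sfrp1 had Ctss at 0.01, Hoxd8 at 0.04 and Atf2 at 0.05, in a range of signals near the floor. Ctnnb1, which spanned less than 2-fold, and Axin2, under the floor, were not searched.

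Sfrp2 is also expressed by fibroblasts, so the markers of fibroblasts and smooth muscle are set beside it. Of 10 such markers on the array, 8 were above the floor on at least 1 array, and their summed signal was 14380, 2132, 17140 and 1539 in array order. Decorin (Dcn), a matrix proteoglycan, made up most of the FOXOA3 FSH sum, with 624.1, 485.2, 12504.1 and 205.7. Without it the sums of the other 9 were 13760, 1646, 4635 and 1333, of which the smooth muscle genes Tagln (9167.1, 902.2, 3238.4 and 728.3) and Acta2 (3710.6, 192.4, 593.7 and 214.6) made up most. Like Sfrp2 and Dcn, Col1a2 (196.6, 56.5, 234.0 and 49.9), Pdgfra (114.3) and Des (122.7) were highest on FOXOA3 FSH. Lum (241.5, 215.8, 98.8 and 97.8) and Myh11 (175.2, 91.4, 132.3 and 16.1) were highest on GFP vehicle, as were Tagln and Acta2. Col1a1 and Pdgfrb were under the floor on all 4 arrays. The part of such cells in the Sfrp2 signal was not tested.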

How the data were processed

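RNA of 4 groups of cells was hybridised to 4 Affymetrix rat arrays, 1 per group. The deposited values are intensity signals, linear, which the authors made, per the submitters' processing notes, with MAS5. Its version and settings are not stated in the sources used here. The MAS5 method subtracts mismatch signal and brings each array to a common mean, so that differences in total RNA are lost, and ratios of dim probe sets carry more noise. The 2% trimmed means were 500.1 to 500.2, and no further scaling was applied.

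Of 31099 probe sets, 57 were controls, 20826 had 1 symbol in the platform annotation, 436 several and 9780 none. The latter were left unnamed. Gene IDs of 20758 matched the RefSeq table of GRCr8, and 0 symbols changed. Log2 was taken after raising signals to the floor of 100.5, with Python 3.11.15 and pandas 2.3.3. The fold step was checked on simulated data. With 1 array a group, the number of arrays limits the precision and no test was made. Alternatives were floors at the 25th and 75th percentile (27.4 and 542.5), no floor with 16 added, quantile normalization, median centring, and the mean of probe sets.

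The members, lists and comparisons were chosen with earlier results of these data known. Per role and comparison, up to 3 list genes with the largest fold of 2 or more in each direction could be named; others named were chosen after their values were seen. Promoter windows are those of RefSeq for GRCr8.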

Additional observations from a re-analysis of the deposited data

Results flagged for a closer look

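Genes of the wider WNT list were looked at again where the FOXO1 vectors lay on opposite sides of GFP FSH by 2-fold or more. Dkk3 was 2.15-fold higher with FOXOA3 and 2.90-fold lower with FOXOA3-mDBD, a difference of 2.64 on the log2 scale. Znrf3 was 2.36-fold lower with FOXOA3 and 2.88-fold higher with FOXOA3-mDBD, a difference of -2.76. Neither difference was tested, since each vector has 1 array. For both genes, FOXOA3 FSH against GFP FSH crosses the spike state, and Dkk3 is among the genes that followed this state. A second Dkk3 probe set, at 29.9 with FOXOA3 and 86.0 with FOXOA3-mDBD, was under the floor on both arrays. No member gene met this condition.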

How the results depend on the processing

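Of 218 member ratios recomputed under 6 alternatives, 207 kept their side of 2-fold, 10 no longer reached it and 1 newly did. No ratio past 2-fold changed sign, but 8 ratios within 2-fold did, 6 of them of Ctnnb1, whose log2 ratio for FOXOA3 FSH over GFP FSH was -0.16 and 0.36 under quantile normalization. The others were Sfrp1 for FOXOA3 FSH over FOXOA3-mDBD FSH, at 0.21 and -0.06 under quantile normalization, and Tcf7l2 for FOXOA3-mDBD FSH over GFP FSH, at -0.24 and 0.04 with the mean of probe sets. Sfrp2 with FOXOA3 over GFP FSH stayed past 2-fold under all 6, with log2 ratios of 1.96 to 6.27, since its bound moves with the floor. Sfrp1 was the least stable. For FOXOA3 FSH over GFP FSH its log2 ratio was 0.92 without a floor, 0.68 under quantile normalization and 0.34 with the mean of probe sets. A floor at the 75th percentile put Fzd2 at -0.32 for FOXOA3-mDBD FSH over GFP FSH and at 0.58 for FOXOA3 FSH over FOXOA3-mDBD FSH, as its dimmer signals lie under that floor.

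Member counts changed as follows. For GFP FSH over GFP vehicle, higher genes numbered 1 with the 75th percentile floor and 1 with the mean of probe sets, and lower genes 3 with the 25th percentile floor and 1 with the mean. For FOXOA3 FSH over GFP FSH, 3 genes were higher with the 25th percentile floor, and 1 with the 75th percentile floor, without a floor, under quantile normalization and with the mean. The 75th percentile floor left 2 lower for FOXOA3-mDBD FSH over GFP FSH and 3 higher for FOXOA3 FSH over FOXOA3-mDBD FSH. For FOXOA3 FSH over GFP vehicle, 1 was higher with the 75th percentile floor, 4 under centring and 2 with the mean, and 0 were lower under centring and with the mean. Over all genes, FOXOA3 FSH over GFP FSH had 1367 higher without a floor, 915 under quantile normalization and 865 with the mean. FOXOA3 FSH over GFP vehicle had 432 higher and 303 lower with the mean. The all-gene counts for the other changes are given above for centring and below for the floors and the mean. The cause of the changes under scaling was not tested.

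In the WNT list, the 25th percentile floor gave 10 higher and 26 lower for GFP FSH over GFP vehicle, 28 and 10 for FOXOA3 FSH over GFP FSH, 23 and 26 for FOXOA3-mDBD FSH over GFP FSH, and 15 and 17 for FOXOA3 FSH over GFP vehicle. The 75th percentile floor gave 1 and 10 for the first, 8 and 1 for the next, 9 and 5 for the mutant over GFP FSH, which turns its split round, 7 and 5 for FOXOA3 FSH over FOXOA3-mDBD FSH, and 3 higher for FOXOA3 FSH over GFP vehicle. The mean of probe sets gave 3 and 10 for the hormone, 8 and 11 for the mutant over GFP FSH, 13 and 5 for the vectors against each other, and 5 lower for FOXOA3 FSH over GFP vehicle. Over all genes, the 25th percentile floor gave 1087 and 1564, 1981 and 975, 1949 and 2466, and 1237 and 609 in the same order. The 75th percentile floor gave 354 and 456, 423 and 391, 699 and 872, 668 and 587, and 204 higher for all genes. The mean gave 555 and 795, 1069 and 1535, 1506 and 810, and 303 lower for all genes. The all-gene split of the mutant over GFP FSH thus did not turn round with the 75th percentile floor. A floor changes the counts by its construction, as it sets how small a signal can enter a fold.

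Centring moved the median log2 ratio of all genes from -0.16 to 0.01 for FOXOA3-mDBD FSH over GFP FSH and from 0.01 to 0.15 for FOXOA3 FSH over GFP vehicle. No paired analysis was possible because each group has 1 array and the labels carry no replicate numbers. For the same reason no replicate could be left out. Signal over background limits Sfrp1, Sfrp4 and Axin2, which lie near or under the floor.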
